A study of Homo sapiens with 9 samples.

Results

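The genes of the mitochondrial entry gates, comprising the 3 voltage-dependent anion channel genes VDAC1, VDAC2 and VDAC3 and 7 genes of the translocase of the outer membrane (TOM), TOMM5, TOMM6, TOMM7, TOMM20, TOMM22, TOMM40 and TOMM70, were followed in RIVA cells. They were picked by symbol and are 10 of the 60656 genes listed. RIVA is an established line of activated B-cell-type diffuse large B-cell lymphoma. The cells carried a lentiviral pLVX-TetOne construct, which doxycycline switches on, holding no insert (vector, labelled BCL10 wild type), BCL10 S136X (a truncation) or BCL10 R58Q (a missense change in the CARD domain). All 3 groups received doxycycline at 200 ng/mL for 24 h by the treatment protocol and comprised 3 libraries each, which the study calls biologic replicates. Poly(A) RNA was sequenced and counted per gene. Each construct sits on top of the cells' own BCL10, and no cells with induced wild-type BCL10 were among the libraries analysed here. Whether a change in RNA per cell or in the make-up of the culture gave a difference cannot be told apart in such bulk samples.

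VDAC proteins are beta-barrel pores through which ATP, ADP and other metabolites cross the outer mitochondrial membrane, and they serve as docking points for hexokinase and for BCL2 family proteins. Nearly all mitochondrial proteins are made in the cytosol and enter through the TOM complex. There, TOMM20, TOMM22 and TOMM70 receive the precursor, TOMM40 forms the channel, and the small subunits TOMM5, TOMM6 and TOMM7 attend to its assembly and stability.

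Total counts ranged from 28047713 to 33122267 per library. BCL10 RNA, in which construct and endogenous transcripts were not separated, was higher in both mutants, with a log2 fold change of 3.75 ± 0.18 (SE) for S136X and 3.44 ± 0.149 for R58Q (edgeR adjusted p = 2.6e-05 and 1.76e-05, n = 3 libraries a group). All 8 B-cell markers examined exceeded 1 CPM (read counts divided by the TMM-scaled library total) in every library. Of 4 T-cell markers, TRAC alone did so, and the list summed to 1.63 to 3.85 CPM in vector, 1.16 to 8.56 CPM in S136X and 1.38 to 12.3 CPM in R58Q. None of 4 myeloid markers did, with summed levels of 0.205 to 0.674 CPM. COL1A1 and EPCAM, 2 of 4 stromal or epithelial markers, did so as well, and that list's summed level was 45.6 to 55.4 CPM in vector, 45.2 to 70.0 CPM in S136X and 46.6 to 72.5 CPM in R58Q. The part of those transcripts in the results was not tested. The R58Q columns carry a later date than those of vector and S136X, so that date and construct cannot be told apart wherever R58Q is compared.

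Promoter sequences from RefSeq (GRCh38.p14) were read for 8 of the 10 members. Those of VDAC3 and TOMM5 were missing from the set of sequences used here and were not searched. The 3 shown stand for a channel gene that rose in both mutants (VDAC2), a receptor gene called with R58Q (TOMM22) and the small subunit gene with the widest gap between the mutants (TOMM7). Each covers the 250 bases before the transcript start, 5′ to 3′ on the gene's strand, at chr10:75209920-75210169 (plus strand, VDAC2), chr22:38681707-38681956 (plus, TOMM22) and chr7:22822850-22823099 (minus, TOMM7). Capitals mark a match on either strand to GCGCATGC (NRF1), CCGGAAGT (ETS factors, among them GABPA), AAGATGGCG (YY1), GGGCGG (Sp1) or the NF-kB consensus.
VDAC2: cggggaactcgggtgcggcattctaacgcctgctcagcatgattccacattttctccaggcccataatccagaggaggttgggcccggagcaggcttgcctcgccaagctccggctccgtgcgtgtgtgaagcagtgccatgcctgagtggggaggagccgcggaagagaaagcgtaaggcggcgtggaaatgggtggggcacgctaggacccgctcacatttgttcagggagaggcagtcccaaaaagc
TOMM22: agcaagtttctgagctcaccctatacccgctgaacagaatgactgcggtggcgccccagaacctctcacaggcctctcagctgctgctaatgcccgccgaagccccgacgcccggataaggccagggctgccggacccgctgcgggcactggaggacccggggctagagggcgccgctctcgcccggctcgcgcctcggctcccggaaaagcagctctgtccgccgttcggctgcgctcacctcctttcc
TOMM7: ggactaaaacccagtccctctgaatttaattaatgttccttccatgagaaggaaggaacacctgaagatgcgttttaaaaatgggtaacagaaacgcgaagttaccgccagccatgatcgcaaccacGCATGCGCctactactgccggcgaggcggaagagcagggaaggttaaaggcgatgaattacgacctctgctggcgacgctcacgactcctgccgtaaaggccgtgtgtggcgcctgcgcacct

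TOMM7 held the NRF1 letters, which occurred in 2.63% of 35116 RefSeq windows of this length. TOMM20, TOMM70 and TOMM6 held the ETS letters, found in 3.42% of windows. TOMM40 held 3 matches to GGGCGG and TOMM70 held 1, a motif present in 42.6% of windows. The YY1 letters (0.652% of windows) and the NF-kB consensus (9.96%) were in none of the 8 members' windows. VDAC1 and VDAC2, which rose in both mutants, and TOMM22 held none of the 5. For TOMM40 the RefSeq start lies 685 bases from the gene start in the deposited table, so another window could belong to the transcripts counted. A match in letters is no evidence of a bound factor, and its absence concerns this window only.

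Per length (RPKM, CPM divided by the kilobases of annotated exon), the gene of the import channel led. In the vector libraries TOMM40 had a median of 88.6 RPKM (85.0 to 106.1), ahead of VDAC1 at 64.5 (61.6 to 69.2). TOMM22 followed at 51.2 RPKM, TOMM20 at 41.7, TOMM7 at 31.2, VDAC2 at 27.6, VDAC3 at 20.6, TOMM70 at 17.5 and TOMM5 at 4.86. Neighbours in this order did not overlap between their 3 libraries except TOMM7 and VDAC2, and the mean of TOMM40 was 19.3 times that of TOMM5. Exon lengths were the union over annotated isoforms, and which isoforms the cells use was not measured.

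TOMM6 was listed at 0 counts in all 9 libraries, which allows up to 3 counts in each. All of its 637 exonic bases (chromosome 6, 41787662 to 41789898, plus strand) lie within exons of the gene AL365205.1 on the same strand, and a read there falls in both genes. AL365205.1 itself had only 13 to 30 counts per library. How the authors' counting treated such reads is not given in the sources used here, so the 0 says nothing about TOMM6 expression, and TOMM6 entered no test. The other 9 members had from 565 (TOMM5) to 14139 (TOMM40) counts in every library and all passed the filter on low counts.

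**Figure D1:**
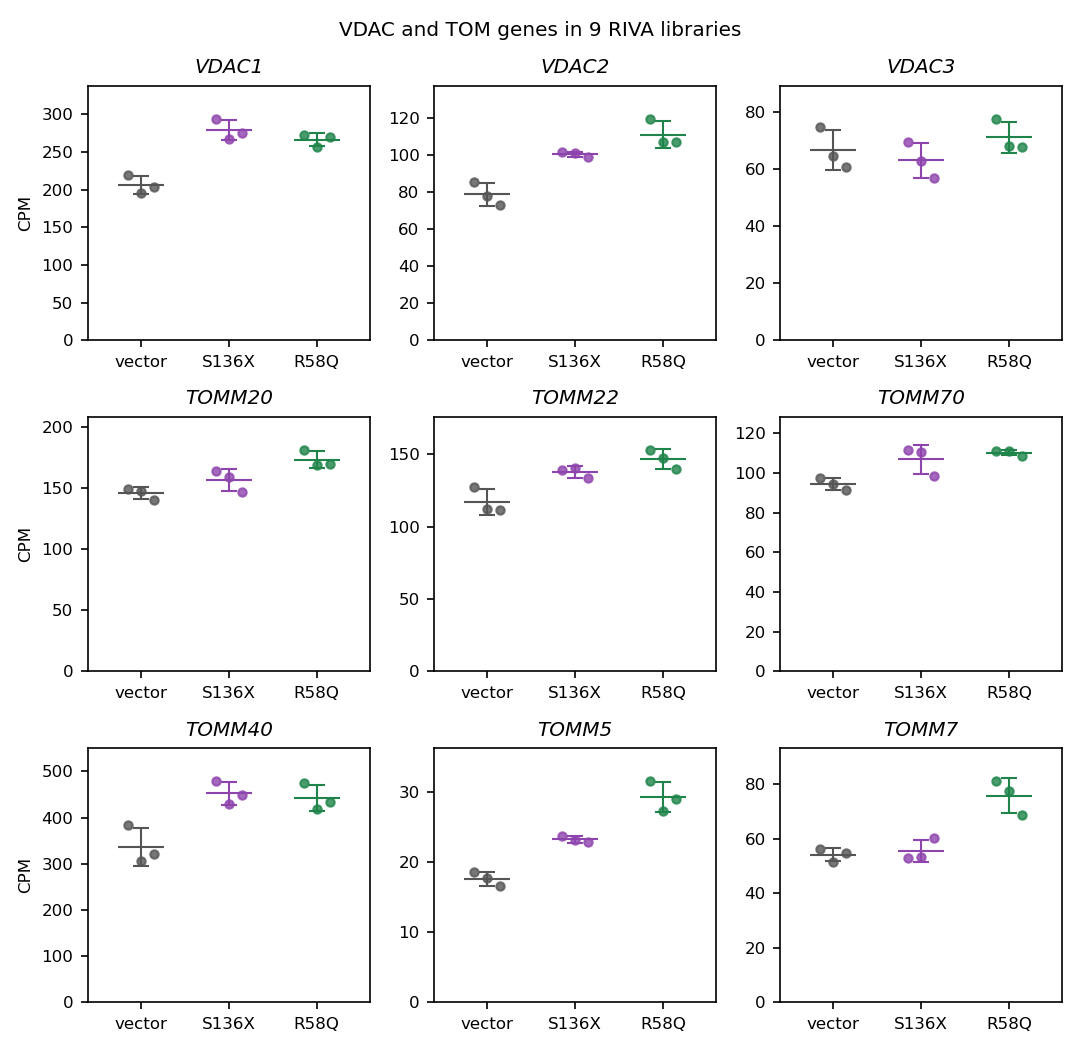
Levels of the 9 counted VDAC and TOM genes in CPM (linear axis from 0, each gene on its own scale) in the vector, S136X and R58Q libraries. Points are libraries in the order of their numbers, and the horizontal line and bar are the mean ± SD of 3. VDAC1, VDAC2, TOMM5, TOMM22, TOMM40 and TOMM70 stand above vector in every mutant library. TOMM20 and TOMM7 do so in R58Q only, where TOMM7 lay between 68.6 and 81.1 CPM, and VDAC3 overlaps across all groups.

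Some members of the set were called higher with S136X and most with R58Q, and none was called lower. With S136X, 4 of 9 members rose and none fell at an adjusted p under 0.05 (edgeR quasi-likelihood test, adjusted over all genes), against 6.03% of all genes tested called higher and 4.1% lower. They were VDAC1, VDAC2, TOMM40 and TOMM5. With R58Q, 8 of 9 rose and none fell, against 12.3% of all genes called higher and 8.76% lower, VDAC3 being the exception. At 1.5-fold or more, no member was called with S136X (background 2.05%) and TOMM5 alone was called with R58Q (background 4.09%), so most rises were of modest size.

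The median log2 fold change of the 9 members was 0.23 with S136X, beside -0.0196 over all genes, and 0.37 with R58Q, beside -0.0283. Of the members, 6 had S136X libraries wholly above vector (16% of all genes did) and 8 had R58Q libraries wholly above it (21.1%). The study plotted normalized counts of VDAC1, VDAC2, TOMM5 and TOMM22 for the same 3 constructs (read from a panel of one of its figures), so those 4 are no independent choice. Of the 5 other members tested, 1 rose with S136X (TOMM40) and 4 rose with R58Q (TOMM7, TOMM20, TOMM40 and TOMM70). Both comparisons use the same vector libraries, and their values are therefore given side by side without a test of likeness.

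**Figure D2:**
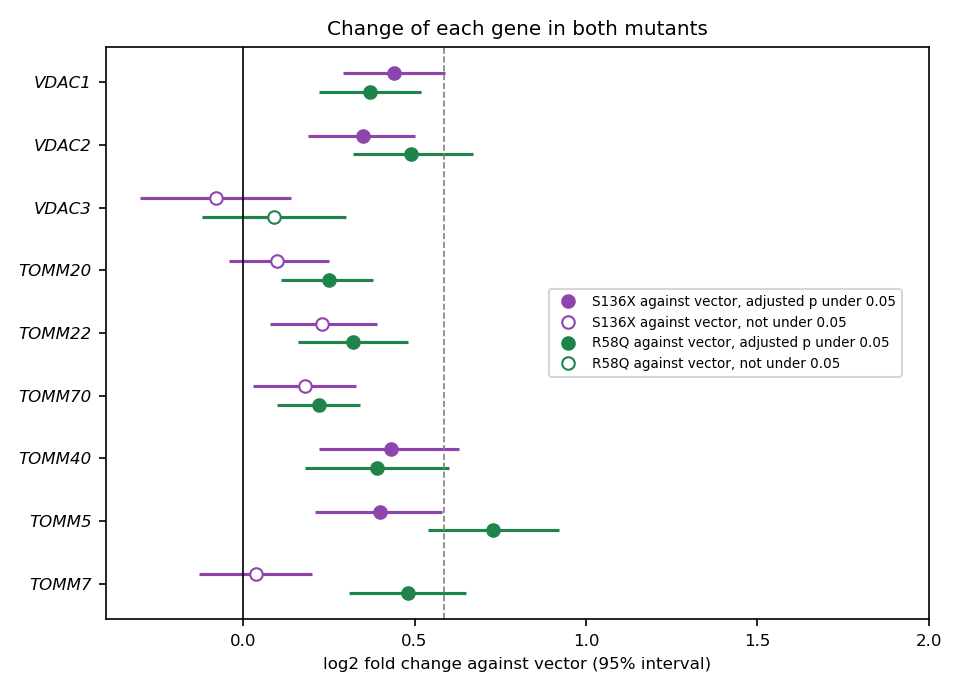
Log2 fold change of each gene against vector (points, x axis) with its 95% interval (lines), S136X in purple and R58Q in green; filled points have an edgeR adjusted p under 0.05, and the dashed line is 1.5-fold. VDAC3 has open points on both sides of 0, TOMM7 is filled for R58Q at 0.48 and open for S136X at 0.036, and TOMM5 with R58Q lies past the dashed line at 0.73.

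VDAC1 (chromosome 5, 133971871 to 134004975, minus strand), the most abundant of the metabolite channels here, had 218.9, 195.0 and 204.0 CPM in the vector libraries. It reached 293.6, 267.7 and 275.9 CPM with S136X and 272.6, 256.1 and 270.2 CPM with R58Q. Every mutant library stood above every vector library, and the mutants overlapped each other. VDAC1 rose by a log2 of 0.44 ± 0.0671 with S136X (1.36-fold, edgeR adjusted p = 0.00604) and 0.37 ± 0.0639 with R58Q (1.29-fold, edgeR adjusted p = 0.00637). Each rise held in all 6 fits that left out 1 library.

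VDAC2 (chromosome 10, 75210154 to 75231448, plus strand), the channel that also retains BAK at the outer membrane, had 85.7, 78.1 and 73.3 CPM in vector. It had 101.8, 101.2 and 99.2 CPM with S136X and 119.6, 107.3 and 107.0 CPM with R58Q. The 3 groups did not overlap, with vector lowest and R58Q highest. The log2 fold change was 0.35 ± 0.0684 with S136X (edgeR adjusted p = 0.0161), which was lost without vector replicate 2 (adjusted p = 0.0822), and 0.49 ± 0.0767 with R58Q (1.41-fold, adjusted p = 0.00417), which held in all 6 such fits.

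VDAC3 (chromosome 8, 42391624 to 42405937, plus strand), the third and least abundant channel, had 74.5, 64.6 and 60.7 CPM in vector, 69.4, 62.6 and 56.9 with S136X, and 77.4, 68.1 and 67.5 with R58Q. All groups overlapped, and library 1 was highest in each. The log2 fold change was -0.08 with S136X (95% interval -0.3 to 0.14, edgeR adjusted p = 0.646) and 0.091 with R58Q (-0.12 to 0.3, adjusted p = 0.513), so that either interval leaves room for a rise of up to 1.1-fold or 1.23-fold.

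Among the channel genes, VDAC3 took a smaller share in the mutants. VDAC3 made up 19.2%, 18.7% and 17.6% of VDAC transcripts per length in the vector libraries, 14.6%, 14.2% and 12.9% with S136X and 16.1%, 15.4% and 14.8% with R58Q. Its share was lower in all mutant libraries than in any vector library. The mean share of VDAC1 was 57.0% ± 1.52 (SD, n = 3) in vector, 61.3% ± 0.918 with S136X and 57.6% ± 1.36 with R58Q, whereas VDAC2 had 24.5% ± 0.769, 24.8% ± 0.849 and 26.9% ± 0.745. VDAC1 thus took the larger share with S136X and VDAC2 with R58Q, in each case with no overlap with the other 2 groups. The two-sided exact permutation test gave p = 0.1 for each of these differences, the smallest value 3 against 3 libraries allow. These shares were computed after the data were seen and do not depend on library scaling.

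TOMM20 (chromosome 1, 235109341 to 235128837, minus strand), the receptor for precursors with a presequence, had 149.2, 147.7 and 139.9 CPM in vector. It had 163.6, 158.7 and 146.5 CPM with S136X and 180.7, 168.6 and 169.2 CPM with R58Q. S136X overlapped vector and R58Q did not. The log2 fold change was 0.1 with S136X (95% interval -0.041 to 0.25, edgeR adjusted p = 0.341) and 0.25 ± 0.0581 with R58Q (adjusted p = 0.0212).

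TOMM22 (chromosome 22, 38681957 to 38685421, plus strand), the central receptor that joins the channels, had 127.6, 112.2 and 111.7 CPM in vector. It had 139.1, 140.8 and 133.4 CPM with S136X and 152.8, 147.7 and 139.6 CPM with R58Q. Both mutants lay wholly above vector. The log2 fold change of 0.23 ± 0.0682 with S136X missed the threshold (edgeR adjusted p = 0.064), and passed it when replicate number was added as a block (adjusted p = 0.0104), a term that compares equally numbered libraries. TOMM22 rose with R58Q by 0.32 ± 0.0711 (adjusted p = 0.0163).

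TOMM70 (chromosome 3, 100363431 to 100401089, minus strand), the receptor for carrier proteins of the inner membrane, had 97.3, 94.2 and 91.5 CPM in vector, 111.4, 110.6 and 98.4 with S136X, and 110.9, 111.0 and 108.7 with R58Q. Both mutants again lay above vector. The log2 fold change was 0.18 ± 0.0664 with S136X (edgeR adjusted p = 0.126, with the block 0.0281) and 0.22 ± 0.053 with R58Q (adjusted p = 0.0216). With the block, 6 of 9 members rose with S136X, against 12.9% of all genes, TOMM22 and TOMM70 being the additions, and the same number as without it, 8, rose with R58Q (18.2%).

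TOMM40 (chromosome 19, 44890569 to 44903689, plus strand), the channel itself, had 382.9, 307.0 and 320.0 CPM in vector. It had 478.6, 428.4 and 449.6 CPM with S136X and 474.0, 419.3 and 432.5 CPM with R58Q. Each mutant library exceeded each vector library, and vector replicate 1 was the highest of its group. TOMM40 rose by 0.43 ± 0.0911 with S136X and 0.39 ± 0.0937 with R58Q on the log2 scale (edgeR adjusted p = 0.0222 in each).

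The calls of the receptors and of TOMM40 were less firm than those of VDAC1. Leaving out vector replicate 2 or 3 ended the R58Q call of TOMM20, TOMM22, TOMM40 and TOMM70 (adjusted p = 0.0634 to 0.0981), and leaving out R58Q replicate 1 or 3 ended that of TOMM20, TOMM40 and TOMM70 (0.0516 to 0.0607). With S136X, the calls of TOMM40 and TOMM5 were lost without S136X replicate 3, vector replicate 2 or vector replicate 3 (0.0507 to 0.101). No direction changed for these genes.

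TOMM5 (chromosome 9, 37582646 to 37592604, minus strand), a small subunit beside the channel, had 18.5, 17.7 and 16.6 CPM in vector. It had 23.7, 23.1 and 22.8 CPM with S136X and 31.5, 27.3 and 28.9 CPM with R58Q. The 3 groups were fully separate, with R58Q highest. TOMM5 rose by a log2 of 0.4 ± 0.081 with S136X (1.32-fold, edgeR adjusted p = 0.0186) and 0.73 ± 0.0847 with R58Q (1.66-fold, 95% interval 1.45 to 1.9, edgeR adjusted p = 0.0012), the latter in all 6 fits that left out 1 library. On the same strand, 18.7% of its exonic bases overlap AL138752.2 or AL513165.2, which had at most 3 counts in any library.

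TOMM7 (chromosome 7, 22812628 to 22822852, minus strand), a small subunit also involved in keeping PINK1 at the outer membrane, had 56.3, 51.5 and 54.7 CPM in vector. It had 53.1, 53.2 and 60.3 CPM with S136X and 81.1, 77.4 and 68.6 CPM with R58Q. S136X overlapped vector, whereas R58Q stood above both. The log2 fold change was 0.036 with S136X (95% interval -0.13 to 0.2, edgeR adjusted p = 0.794) and 0.48 ± 0.0756 with R58Q (1.4-fold, adjusted p = 0.00439), which held in all 6 fits that left out 1 library.

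Whether the mutants differ from each other was tested directly on their 6 libraries. No member passed at an adjusted p under 0.05 (edgeR, background 0.349% of genes higher in R58Q and 0.184% lower), although TOMM7 and TOMM5 had an unadjusted p under 0.05. TOMM7 was higher in R58Q by 0.44 on the log2 scale (95% interval 0.24 to 0.63, edgeR adjusted p = 0.0905), and TOMM5 by 0.33 (0.15 to 0.5, adjusted p = 0.129). DESeq2 called TOMM7 and no other member (adjusted p = 0.00223). Of the members, 4 had R58Q libraries wholly above S136X (VDAC2, TOMM5, TOMM7 and TOMM20), as did 9.45% of all genes.

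Equally numbered libraries tended to deviate together from their group means (r = 0.143 to 0.626, against -0.459 to 0.169 for different numbers). That contrast is partly built in, and each pair of R58Q and S136X libraries spans the different column dates. Once replicate number was blocked, 4 members were higher in R58Q and none lower, against 7.84% and 6.71% of all genes. These were TOMM7 (edgeR adjusted p = 8.04e-05), TOMM5 (adjusted p = 0.000907), VDAC3 (0.17, adjusted p = 0.0231) and TOMM20 (0.14, adjusted p = 0.0339). VDAC1 (-0.076, 95% interval -0.21 to 0.055) and TOMM40 (-0.042, -0.2 to 0.11) had the lowest values, and neither passed in either fit. The 230 other tested genes whose longest coding sequence spans at most 300 bases had a median of 0.12 in this comparison, against 0.0082 for the 11858 longer ones. With R58Q against vector, genes of such short coding length had a median of 0.13 and 26.8% were called higher, against 0.0096 and 14.4% of the longer ones. That sequence is 294 bases for TOMM5 and 375 for TOMM7. Their longest annotated transcripts span 3071 and 778 bases. The part of coding length and of the later date in the TOMM5 and TOMM7 values was not tested.

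**Figure D3:**
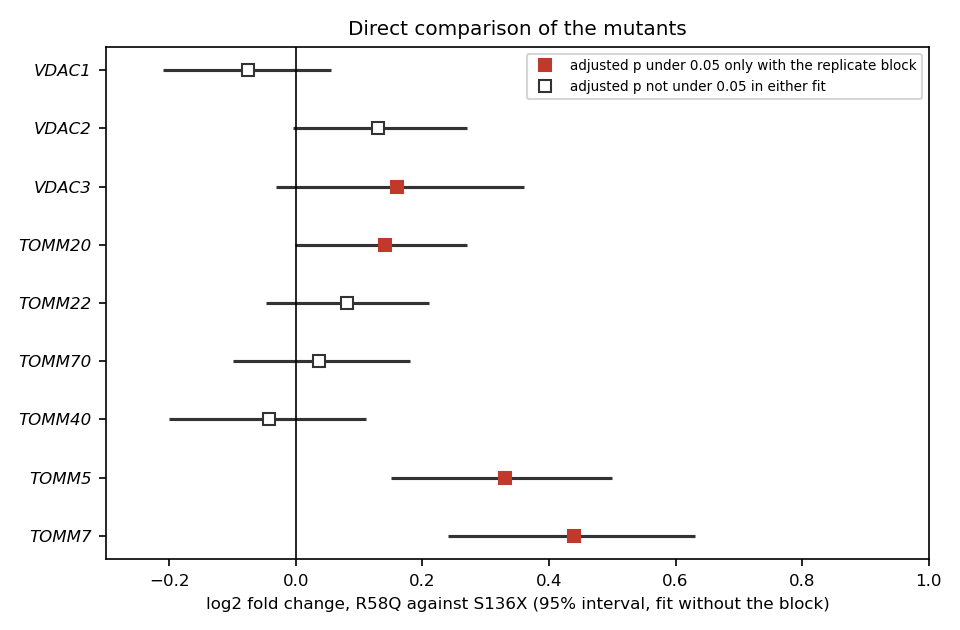
Log2 fold change of R58Q against S136X for each gene (x axis), with its 95% interval from the edgeR fit without a block, on 3 libraries a group. Red squares mark the 4 genes whose adjusted p fell under 0.05 once the replicate number entered as a block, and TOMM7 at 0.44 and TOMM5 at 0.33 lie farthest from 0.

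Summed over the 9 counted members, the level was 1117.1 ± 81.4 CPM (SD, n = 3) in vector, 1374.6 ± 51.7 with S136X and 1425.3 ± 65.5 with R58Q. Both mutants lay wholly above vector (exact permutation p = 0.1, the smallest possible), and they overlapped each other (exact permutation p = 0.5). Paired by number, R58Q exceeded S136X in 3 of 3 pairs for this sum and for the TOM genes, and in 2 of 3 for the VDAC genes (paired exact permutation p = 0.25, 0.25 and 0.5, with 0.25 the smallest that 3 pairs allow). The TOM genes gave 765.6, 931.8 and 976.6 CPM of this and the VDAC genes 351.6, 442.8 and 448.6 CPM. TOMM40 alone gave 336.6, 452.2 and 441.9 CPM and VDAC1 206.0, 279.1 and 266.3 CPM, so these genes weigh most in the sums. Vector replicate 1 had the highest sum of its group at 1211.1 CPM, as did replicate 1 of S136X at 1434.3 and of R58Q at 1500.6.

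Few counts were listed under near-identical copies. Of the 31-base words of the longest transcript, 50% for VDAC2, 32.9% for VDAC1 and 24.8% for TOMM40 also occur in other genes, against 10.1% or less for the other counted members. Counts listed under the pseudogenes of a member reached 1.31% of the member for VDAC2, where VDAC2P5 had 16 to 39 counts, and 0.617% for VDAC1, where VDAC1P8 had 5 to 14. They were at most 0.164% for the others. Adding them to the parent gene changed no call of a member. How reads that match several places were counted is not given in the sources used here. Levels of VDAC2, VDAC1 and TOMM40 may thus be understated or overstated.

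Genes that work with the members were read from 10 lists of 141 genes, whose counts stand against 6.03% of all genes called higher and 4.1% lower with S136X, and 12.3% and 8.76% with R58Q. Beyond the outer membrane, precursors pass the inner membrane by TIM23 and the import motor, of which 7 of 13 genes rose with each mutant and none fell. The motor chaperone HSPA9 rose by 0.53 ± 0.101 with S136X and 0.47 ± 0.0975 with R58Q, and its exchange factors GRPEL1 by 0.46 and 0.44 and GRPEL2 by 0.43 and 0.69 (edgeR adjusted p = 0.00286 to 0.0235 over these 6 values). TIMM17B, a subunit of the TIM23 channel, rose by 0.31 and 0.45 (adjusted p = 0.0351 and 0.0044). The median of the list was 0.27 with either mutant.

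For the carrier route and for assembly in the outer membrane, no gene passed the threshold with S136X. Of the 9 TIM22 and small TIM genes, TIMM9, TIMM10 and TIMM13, chaperones of the intermembrane space, rose with R58Q (0.36, 0.33 and 0.43) and missed the threshold with S136X at 0.38, 0.25 and 0.29 (edgeR adjusted p = 0.0574, 0.0737 and 0.0613). With the block, 4 of the 9 rose with S136X and 5 with R58Q, among backgrounds of 12.9% and 18.2%. Of 6 genes for beta-barrel insertion (SAM) and intermembrane oxidation (MIA), SAMM50, MTX2 and CHCHD4 rose with R58Q by 0.34, 0.52 and 0.36 (adjusted p = 0.0106, 0.00746 and 0.0326), and none was called with S136X (2 with the block). Values with S136X were 0.17, 0.32 and 0.31. The direct comparison of the mutants called none of these genes, and with the block it called MTX2 (adjusted p = 0.0368) and SAMM50 (0.033) higher in R58Q and TIMM10B lower (0.0366). In the TIM23 list that fit called GRPEL2 higher (0.00568) and TIMM23 and TIMM44 lower (0.00235 and 0.0327).

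Past the import gates, HSPD1, the matrix chaperonin, and LONP1, the matrix protease, rose with both mutants, by 0.35 and 0.29 and by 0.34 and 0.37, among 3 of 9 matrix processing and folding genes called with each (backgrounds 6.03% and 12.3%). Of 6 VDAC partners tested, HK2, a hexokinase that binds VDAC, rose by 0.52 ± 0.0682 with S136X and 0.52 ± 0.0725 with R58Q (edgeR adjusted p = 0.00329 and 0.00263). PPIF, the matrix cyclophilin of the permeability transition, rose by 0.31 and 0.39 (adjusted p = 0.0124 and 0.00595). The other 4, HK1 and 3 adenine nucleotide carriers, were not called. With the block, 4 of the 6 rose with S136X (background 12.9%) and 5 with R58Q (18.2%).

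Other genes of the outer membrane lay closer to 0. Of 20 such genes, 2 rose with S136X (MFN2 and CYB5B, background 6.03%) and 5 with R58Q (12.3%), the latter adding FUNDC1, MIEF1 and TSPO, and none fell, with medians of 0.078 and 0.096. With the block, 5 rose and 2 fell with S136X (12.9% and 11.8% of all genes), and 8 rose and 4 fell with R58Q (18.2% and 17%). TSPO, a cholesterol-binding membrane protein, had 0.01 with S136X and rose by 0.47 with R58Q (edgeR adjusted p = 0.0171). Of 2 tested TOM-related genes, the cytosolic co-chaperone TOMM34 rose with R58Q (0.23, adjusted p = 0.0324) and had 0.21 with S136X (adjusted p = 0.0526).

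Of 14 regulators and effectors of mitochondrial biogenesis, 2 rose with S136X (PPRC1, a coactivator, and TWNK, the mitochondrial DNA helicase; background 6.03%) and 5 with R58Q (12.3%), which added ESRRA, POLRMT and TFAM. Their median was 0.16 with either mutant. Among 45 nuclear subunits of oxidative phosphorylation, 1 rose with S136X (UQCRFS1, background 6.03%) and 19 rose with R58Q (background 12.3%), where NDUFB10 fell, with medians of 0.048 and 0.23. The 13 subunits encoded in mitochondria, which do not pass the TOM gate, had medians of -0.11 and -0.42, with none called in S136X, 4 fallen (MT-CO1, MT-ND1, MT-ND2 and MT-ND4) and MT-ND6 risen in R58Q. With the block, 10 of the 13 fell with R58Q (background 17%). In that fit 6 of the 45 nuclear subunits and 5 of the 14 biogenesis genes rose with S136X (background 12.9%), and 27 nuclear subunits rose with R58Q (18.2%). No gene of the 10 lists was called between the mutants by edgeR without the block, whereas with it 19 nuclear subunits were higher in R58Q than in S136X (background 7.84%) and NDUFB10 was lower. Of the mitochondrial-encoded ones, 10 were lower (background 6.71%) and MT-ND6 was higher (block adjusted p = 5.37e-06 by edgeR).

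**Figure D4:**
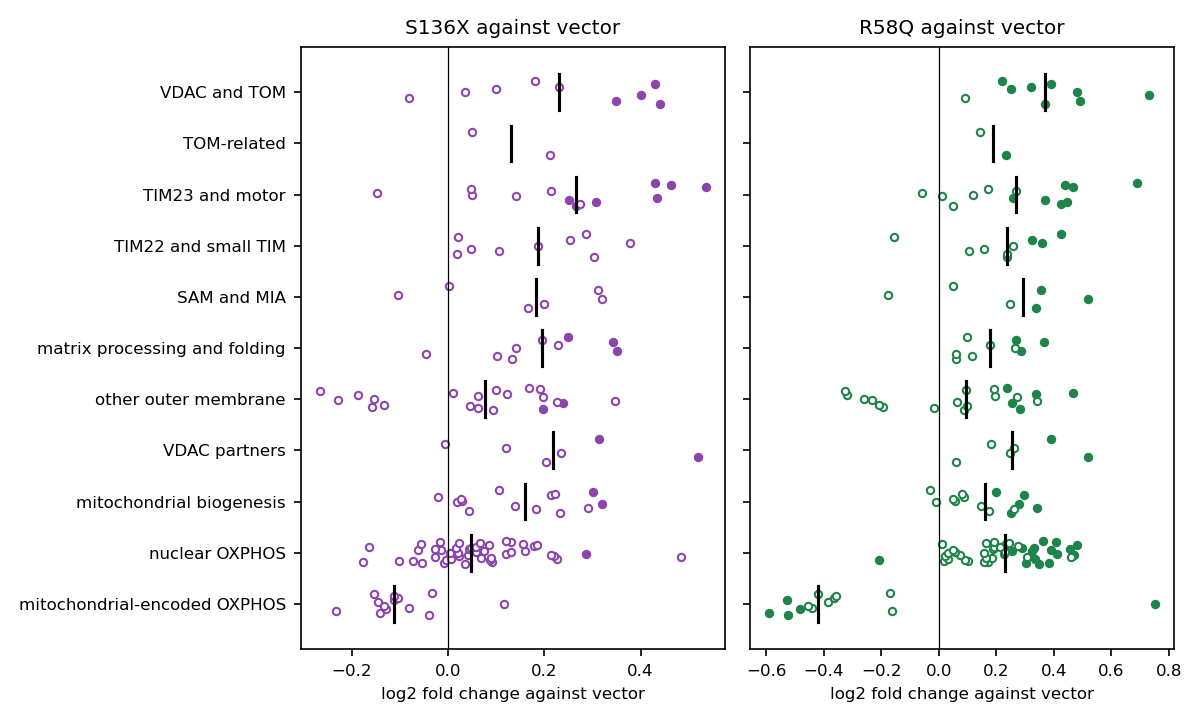
Log2 fold change against vector (x axis) of the 9 VDAC and TOM genes and of each tested gene of the 10 related lists, S136X left and R58Q right, on separate x scales. Filled points have an edgeR adjusted p under 0.05 and black bars are medians, which run from 0.37 for VDAC and TOM to -0.42 for the mitochondrial-encoded subunits in R58Q.

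The genes whose levels followed the mean of the members most closely over the 9 libraries, among 9013 with a mean of at least 10 CPM, were NPLOC4 (Pearson r = 0.989), MRPL39 (0.988), APH1A (0.987), EMG1 (0.987) and JAGN1 (0.987). The libraries share 3 constructs and their numbers, so these values describe a pattern and carry no test. MRPL39, a protein of the mitochondrial ribosome, rose by 0.47 with S136X and 0.7 with R58Q (edgeR adjusted p = 0.0121 and 0.00267).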

How the data were processed

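RNA of 9 RIVA libraries (3 each of vector, S136X and R58Q) was sequenced over 2 runs whose reads the authors combined. The authors deposited whole-number read counts per gene, used here, and beside them a normalized signal, not used. The submitters' processing notes name cutadapt, STAR, Picard and hg38, while the counting program, its use of strand and the annotation are not given in the sources used here. Gene positions overlapped those of GENCODE release 29 (GRCh38), whose ends differ for some members and from which exon lengths were taken. Reads shared by overlapping genes may have been lost or split.

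Each pair of groups (6 libraries) was fitted to the counts by edgeR 4.0.16 under R 4.3.3. Genes were filtered by filterByExpr (minimum count 10, minimum total 15), scaled by TMM and compared by the quasi-likelihood F test, and p-values were adjusted over all genes tested (Benjamini-Hochberg). Standard errors are the log2 fold change over the root of F. Precision follows from totals of 28047713 to 33122267 counts per library and from 3 libraries a group. Limits set from a count of 0 cover counting error only. P-values set the difference between groups against the spread between these libraries of RIVA cells alone.

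Members, lists, motifs and tests were chosen with earlier results of these data known. Beyond the members, the text names BCL10, at most 4 genes of a list with the largest change past the threshold (others by symbol where few were called), the pseudogene with most counts and the 5 genes most alike. The length limit of 300 bases was chosen after the values were seen. The scripts were tested on simulated data.

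Alternatives were DESeq2 1.42.0, upper-quartile factors, total counts only, no filter, all 9 libraries, the replicate block, pseudogenes summed, each replicate left out and an adjusted p of 0.01. A fit restricted to protein-coding genes, the VDAC shares and the paired sums were added once the data had been seen. Replicate numbers were taken to pair the libraries, because all 9 correlations between the deviations of equally numbered libraries exceeded 0.1 (0.143 to 0.626, median 0.425). The 18 differently numbered pairs ranged from -0.459 to 0.169 (median -0.251), so the ranges overlap. Deviations cancel within each group, so positive values for equal numbers bring negative ones for different numbers. The contrast is thus partly built in, and the results with the block rest on this pairing.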

Additional observations from a re-analysis of the deposited data

How the results depend on the processing

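No member fell under any alternative run. Without 1 library, the number of members that rose ranged from 1 to 5 with S136X and from 4 to 8 with R58Q. In these fits 2.07% to 5.78% and 5.47% to 11.6% of all genes were called higher. The lowest number with S136X, 1, came without vector replicate 2 (2.07% of all genes). The lowest with R58Q, 4, came without vector replicate 2 (5.47%) and also without vector replicate 3 (6.82%). The S136X median of the members ranged from 0.21 to 0.31. At an adjusted p under 0.01, 1 rose with S136X and 4 with R58Q, and the share of all genes at that threshold is not given here. Between the mutants, where none was called, DESeq2, the fit without a filter and the fit of all 9 libraries called 1 each (TOMM7). They called 0.704%, 0.65% and 0.864% higher of the 29677, 29677 and 15860 genes fitted. The replicate block called 4 members (7.84% of all genes). The cause was not tested. Under the block, TOMM22 and TOMM70 with S136X passed as well, and it changed no further call of a member. TOMM22 with S136X also passed with DESeq2 (adjusted p = 0.0374), with all 9 libraries (0.0454) and without vector replicate 1 (0.0221).

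Directions turned only for values that never passed: VDAC3 with S136X (-0.16 to 0.018 without 1 library, the latter without vector replicate 1), TOMM7 with S136X (-0.015 with total counts only, and -0.016 to 0.08 without 1 library, the former without S136X replicate 3) and TOMM70 between the mutants (-0.013 to 0.067, the former without S136X replicate 3). Total counts only ended the R58Q call of TOMM70 (adjusted p = 0.0535) and upper-quartile factors those of TOMM20 (0.0539) and TOMM70 (0.0592). Over all genes, 59.5% of S136X calls and 58.3% of R58Q calls were higher with TMM, against 47.4% and 40.3% with upper-quartile factors and 42.6% and 43.1% with total counts only, so the backgrounds in the text depend on scaling. Depth did not limit the 9 counted members, whose smallest count was 565; TOMM6 could not be measured.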

Other observations

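MT-CO1, the catalytic subunit of cytochrome oxidase, had 6320.9, 9328.8 and 9264.3 CPM in vector and 5403.6, 5400.0 and 6509.7 CPM with R58Q, so that vector replicate 1 lay below R58Q replicate 3. HK2, in contrast, had 92.2, 79.2 and 85.0 CPM in vector, 126.0, 121.7 and 119.8 with S136X and 130.0, 117.9 and 120.4 with R58Q, with no overlap between vector and either mutant.

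COX7A2, a small nuclear subunit of cytochrome oxidase, overlapped vector with S136X and stood above it with R58Q, as TOMM7 did. It had 68.1, 66.2 and 64.1 CPM in vector, 66.8, 69.6 and 68.1 with S136X and 97.7, 91.2 and 83.8 with R58Q. The change with R58Q was 0.46 ± 0.0693 on the log2 scale (edgeR adjusted p = 0.00376) and with S136X 0.043 (adjusted p = 0.677). The direct comparison gave 0.41 (adjusted p = 0.056, with the replicate block 1.5e-05). It was singled out after its values were seen.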
